A study of Mus musculus with 24 samples.

Results

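Fat cells release their stored triglyceride through a short chain of proteins, and 9 genes of that chain were followed here: Pnpla2, Lipe, Mgll, Abhd5, Adrb3, Adra2a, Hcar1, Hcar2 and Pde3b. They were chosen by name as the lipases of the droplet, the coactivator of the first lipase, the receptors that start or restrain lipolysis, and the enzyme that removes the messenger between them. Probes were matched to them through the accession each probe carries, which gave 17 of the 55681 probes that are no control. All 17 probes, and all 9 genes, passed the filter on signal over background that left 24769 probes and 13014 named genes. Adrb3, Hcar1 and Hcar2 had 2 probes each, Abhd5 had 3, Mgll had 4, and Pnpla2, Lipe, Adra2a and Pde3b had 1 each.

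RNA came from the epididymal white adipose tissue, a visceral fat depot, of 24 individually housed male C57BL/6JRcc mice aged 28 or 29 weeks. Of these, 12 were No NR mice, whose semi-synthetic feed held 0 mg nicotinamide riboside per kg, and 12 were Ctrl NR mice, whose feed held 30 mg per kg. Nicotinamide riboside is a form of vitamin B3 and a precursor of NAD. Both diets supplied 40% of energy from fat, 19% from protein and 41% from carbohydrate, and a low tryptophan content of 0.115%. Tryptophan is another source of NAD. All mice first had the Ctrl NR diet for 2 weeks and then their own diet for 18 weeks. All received 0.8 g of food at the start of the last dark phase and were refed 1.8 g for 4 h before they were killed, so the tissue was taken in the refed state, in which insulin restrains lipolysis. Each mouse was 1 array. Its Cy5 signal was divided by the Cy3 signal of a common pool, and that log2 ratio is the measure used below. The pool also held other diets and 4 female samples, so a ratio of 0 is the level of the pool and not of a diet.

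In lipolysis, noradrenaline acts on the beta-3 adrenergic receptor (Adrb3), the messenger cAMP rises, and protein kinase A acts on hormone-sensitive lipase (Lipe) and on the perilipin coat of the droplet. Freed from perilipin, ABHD5 (Abhd5) activates adipose triglyceride lipase (Pnpla2), which takes the first fatty acid from a triglyceride. Hormone-sensitive lipase takes the next and monoglyceride lipase (Mgll) the last. The alpha-2A adrenergic receptor (Adra2a), the lactate receptor (Hcar1) and the receptor for nicotinic acid and beta-hydroxybutyrate (Hcar2) signal through Gi and lower cAMP, while phosphodiesterase 3B (Pde3b) degrades cAMP when insulin is present. Adipocytes carry most of this chain, and white fat also holds macrophages, endothelial cells and stromal cells.

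The 250 bases before the start of transcription were read for the members that a RefSeq table (GRCm38.p6) lists, which gave 8 promoters of 6 members. Shown first are Pnpla2 and Lipe, the lipases of the first steps. Hcar1 and Adra2a follow, a pair of dim inhibitory receptors whose levels behaved differently across mice in the main processing but not in all settings. Each runs 5′ to 3′ on the strand of its gene, and capitals mark matches to the motifs named in the next paragraph.
Pnpla2, chr7:141454938-141455187, plus strand: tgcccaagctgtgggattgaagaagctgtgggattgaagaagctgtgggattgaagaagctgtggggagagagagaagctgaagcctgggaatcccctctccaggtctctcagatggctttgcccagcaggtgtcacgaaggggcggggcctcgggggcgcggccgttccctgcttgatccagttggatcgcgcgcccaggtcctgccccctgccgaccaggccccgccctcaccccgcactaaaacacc
Lipe, chr7:25395988-25396237, minus strand: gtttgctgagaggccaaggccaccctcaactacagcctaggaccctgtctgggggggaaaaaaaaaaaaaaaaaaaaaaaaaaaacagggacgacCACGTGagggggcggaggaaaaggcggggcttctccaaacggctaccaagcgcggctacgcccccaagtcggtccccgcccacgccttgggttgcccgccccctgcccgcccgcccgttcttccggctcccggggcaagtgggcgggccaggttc
Hcar1, chr5:123880004-123880253, minus strand: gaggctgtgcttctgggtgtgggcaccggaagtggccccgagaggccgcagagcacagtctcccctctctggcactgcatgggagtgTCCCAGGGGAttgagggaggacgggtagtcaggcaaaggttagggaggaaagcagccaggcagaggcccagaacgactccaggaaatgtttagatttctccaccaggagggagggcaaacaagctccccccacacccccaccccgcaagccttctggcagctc
Adra2a, chr19:54045009-54045258, plus strand: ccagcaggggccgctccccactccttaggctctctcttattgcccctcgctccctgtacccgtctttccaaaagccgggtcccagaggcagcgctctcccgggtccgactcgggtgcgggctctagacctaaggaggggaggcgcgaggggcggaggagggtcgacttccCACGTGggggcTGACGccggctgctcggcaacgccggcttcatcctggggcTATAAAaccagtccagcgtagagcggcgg

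Motifs were searched on both strands of these windows and of 32851 promoters of the same length. The Hcar1 window held 1 match to the EBF motif (TCCC and GGGA with any 2 bases between), which 0.779% of all promoters hold. The E-box CACGTG stood in the Adra2a window, in 1 of the 2 Lipe windows and in 1 of the 2 Mgll windows, against 6.02% of all promoters. TATAAA stood in the Adra2a window, 29 bases before the start, against 12.4% of all. TGACG, the core of the cAMP response element, was found for Adra2a and Abhd5, against 17.8% of all, and AGGTCA, the half-site read by PPARs, for Abhd5, against 14.0%. The PPAR direct repeat (2 copies of AGGTCA with any 1 base between), TTGCNNAA (C/EBP), TGACGTCA and CCAAT were in none of the 8 windows, and 0.0335%, 9.56%, 1.55% and 33.8% of all promoters hold them. TGACGTCA contains TGACG, and the direct repeat contains AGGTCA. The Pnpla2 window held none of the 9 motifs. A match is a run of letters in this window only, and none was tested for binding.

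The tissue was checked through marker lists. All 29 adipocyte genes were kept, among them Adipoq and Lep, and well above background on all 24 arrays. Of 10 epididymis genes 8 were not kept. The 2 that were kept were Rnase10, well above background on all 24 arrays, and Ovch2, on 5 No NR and 8 Ctrl NR arrays. Epididymal RNA in the samples was not tested further. The share of probes well above background was 34.5% to 50.7% per array. Over the whole array no probe differed between diets at an adjusted p under 0.05 (0 of 24769, 0.0%; limma with Benjamini-Hochberg adjustment), while 3479 had an unadjusted p under 0.05 (14.0%). Leaving out single Ctrl NR mice changed this count: it was 271 without Ctrl NR mouse 117, 257 without mouse 68, 105 without mouse 104, 42 without mouse 77 and 6 without mouse 75. It was 3 without No NR mouse 78 and 2 without No NR mouse 118. Between the 5 slides, 2 of 24769 probes differed at an adjusted p under 0.05 (0.00807%), and 0 of 17 member probes did. Macrophage markers were on balance higher in No NR fat (26 of 28 genes higher, median log2 difference 0.24, 3 at an unadjusted p under 0.05 and 0 after adjustment), and adipocyte markers on balance slightly lower (18 of 29 lower, median -0.09).

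No difference between the diets was detected for any of the 9 genes. The share of member probes at an unadjusted p under 0.05 was 2 of 17 (11.8%), against the 14.0% of all probes, and 0 of 17 passed after adjustment, against 0.0% over the array. Of those 2 probes, Hcar2 A_55_P2038882 passed the filter only through the No NR arrays, the diet in which it was higher, so the count is no support for a difference. The values of the diets overlapped for all 17 probes. Overlap was not counted over all kept probes, so this describes the values and says nothing particular about the members. Of the 17 probes 11 were lower and 6 higher in No NR fat, with a median log2 difference of -0.10, against -0.01 over all kept probes.

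**Figure D1:**
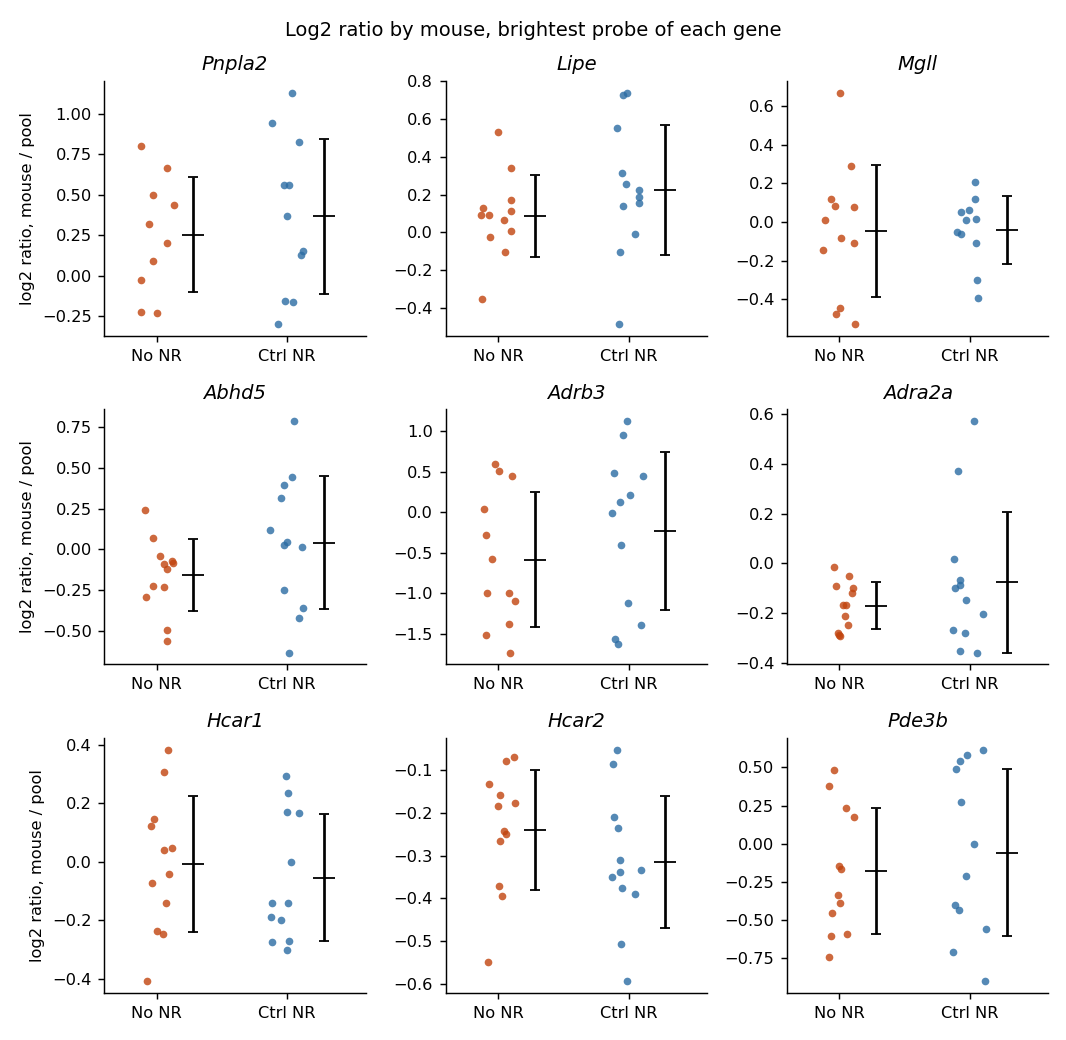
Log2 ratio of each mouse to the pool (vertical axes, each panel with its own scale) for the brightest probe of each of the 9 genes, with No NR mice left and Ctrl NR mice right. Points are mice and bars are the mean with SD; in every panel the diets overlap, and Adrb3 has the widest scale, 2.85 log2 units from its lowest to its highest mouse.

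Pnpla2, the lipase of the first step, ran from -0.23 over a median of 0.26 to 0.80 in No NR fat (n = 10), and from -0.30 over a median of 0.37 to 1.13 in Ctrl NR fat (n = 11). The 3 missing spots carried an outlier flag and were left out. The means were 0.25 ± 0.36 and 0.37 ± 0.48 (SD) for No NR and Ctrl NR, a log2 difference of -0.11 (95% interval -0.46 to 0.24, unadjusted p = 0.511, limma). The difference turned to 0.21 when the ratios were scaled between arrays. In Ctrl NR fat 3 mice lay above every No NR mouse and 1 lay below.

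Lipe, which takes the next fatty acid, ran from -0.35 over 0.09 to 0.53 in No NR fat and from -0.49 over 0.20 to 0.74 in Ctrl NR fat (lowest, median and highest of 12 mice each). The mean difference was -0.14 (interval -0.37 to 0.09, unadjusted p = 0.230, limma). Most No NR mice lay close together around the pool level, while 3 Ctrl NR mice lay above every No NR mouse and 1 lay below.

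Mgll frees the last fatty acid and glycerol, and its 4 probes did not give 1 answer. The brightest, A_55_P2063316, averaged -0.05 ± 0.34 in No NR fat (n = 12) and -0.04 ± 0.18 in Ctrl NR fat (SD, n = 11), a difference of -0.00 (interval -0.23 to 0.22). A_55_P2114863, which followed it across mice (r = 0.811), was lower by a log2 difference of -0.13 (interval -0.35 to 0.09). A_55_P2063312 gave -0.17 ± 0.32 in No NR fat and 0.07 ± 0.25 in Ctrl NR fat (SD, n = 12 each), a difference of -0.24 (interval -0.46 to -0.01, unadjusted p = 0.0430, adjusted p = 0.337 over all probes by limma). This probe and the dim A_55_P2063311 carry the accession NM_001166250, the other 2 probes NM_001166251, which are different transcript records of the gene. A_55_P2063311 was well above background on 9 No NR and 6 Ctrl NR arrays, with a difference of 0.06.

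Abhd5, the coactivator of the first lipase, also gave probes that pointed apart, although all 3 carry the accession NM_026179. The brightest, A_55_P2177233, ran from -0.56 over -0.11 to 0.24 in No NR fat and from -0.64 over 0.04 to 0.79 in Ctrl NR fat. Its difference was -0.20 (interval -0.46 to 0.06, unadjusted p = 0.127), and 4 Ctrl NR mice lay above every No NR mouse and 1 below. A_51_P407165 gave 0.09 (interval -0.13 to 0.31). A_52_P273821 ran from -0.48 over -0.01 to 0.34 in No NR fat and from -0.95 over -0.38 to 0.40 in Ctrl NR fat, a difference of 0.27 (interval -0.03 to 0.57, unadjusted p = 0.0746), and 6 Ctrl NR mice lay below every No NR mouse. Across mice the brightest and A_52_P273821 were unrelated (r = -0.00), while A_51_P407165 followed both (r = 0.545 and 0.629). Without the 2 mice farthest from the median of 1 probe of the pair, these r were 0.249 and 0.514. The relation with the brightest probe thus rests in part on those mice, and the probes give no single answer for Abhd5.

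Adrb3, the receptor that starts lipolysis in rodent fat, was among the most variable probes, with an SD above that of 99.6% of the kept probes. A_55_P1992849 ran from -1.73 over -0.78 to 0.60 in No NR fat and from -1.62 over 0.06 to 1.12 in Ctrl NR fat. The highest mouse was 7.23-fold above the lowest. By this probe 2 Ctrl NR mice lay above every No NR mouse, and 1 No NR mouse lay below every Ctrl NR mouse. The means were -0.58 ± 0.83 in No NR fat and -0.23 ± 0.97 in Ctrl NR fat (SD, n = 12 each), a difference of -0.35 (SE 0.33, interval -1.04 to 0.34, unadjusted p = 0.303, limma). The dimmer probe A_55_P2105685 followed it across mice (r = 0.951) and gave -0.27 (interval -0.80 to 0.26). With the macrophage list mean of each mouse in the model the 2 differences were -0.01 and -0.00. With the adipocyte list mean in its place both also stayed below 0, and their size is not quoted here. Over all the settings tried they ran from -0.65 to -0.01 and from -0.44 to -0.00. The part of cell types in the difference was not tested. On single slides the difference for A_55_P1992849 ran from -1.36 to 0.94.

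Of the inhibitory receptors, Adra2a and Hcar1 had no probe well above background on all 24 arrays. Adra2a was well above background on 11 No NR and 9 Ctrl NR arrays and ran from -0.29 over -0.17 to -0.02 in No NR fat and from -0.36 over -0.12 to 0.57 in Ctrl NR fat. The difference was -0.09 (interval -0.27 to 0.08, unadjusted p = 0.279) and turned to 0.02 with the processed signals of the files. All 12 No NR mice lay in a narrow band (SD 0.0957, against 0.285 in Ctrl NR), and Ctrl NR mice 84 and 108, at 0.57 and 0.37, stood above all other mice.

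Hcar1, the lactate receptor, averaged -0.01 ± 0.23 in No NR fat and -0.06 ± 0.22 in Ctrl NR fat (SD, n = 12 each) by A_51_P294059, a difference of 0.05 (interval -0.14 to 0.23). The second probe, well above background on 6 No NR and 9 Ctrl NR arrays, gave -0.10 (interval -0.31 to 0.11). Hcar2, the receptor through which nicotinic acid acts on fat cells, ran from -0.55 over -0.21 to -0.07 in No NR fat and from -0.59 over -0.34 to -0.05 in Ctrl NR fat by A_51_P488739. That difference was 0.08 (interval -0.06 to 0.21, unadjusted p = 0.249). The dim probe A_55_P2038882, well above background on 8 No NR arrays and 2 Ctrl NR arrays, averaged -0.08 ± 0.15 in No NR fat and -0.22 ± 0.16 in Ctrl NR fat (SD, n = 12 each), a difference of 0.15. It passed the filter only through No NR, where it was higher, so this value is a description and no second support for Hcar2, and it ran from 0.0675 to 0.796 over the settings tried. The SD of A_51_P488739 was above that of 14.9% of the kept probes.

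Pde3b, which degrades cAMP under insulin, ran from -0.74 over -0.25 to 0.49 in No NR fat and from -0.91 over -0.11 to 0.62 in Ctrl NR fat. Its difference was -0.12 (interval -0.50 to 0.25, unadjusted p = 0.514, limma). Mice of both diets lay along most of the range, with 4 Ctrl NR mice above and 1 below every No NR mouse.

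**Figure D2:**
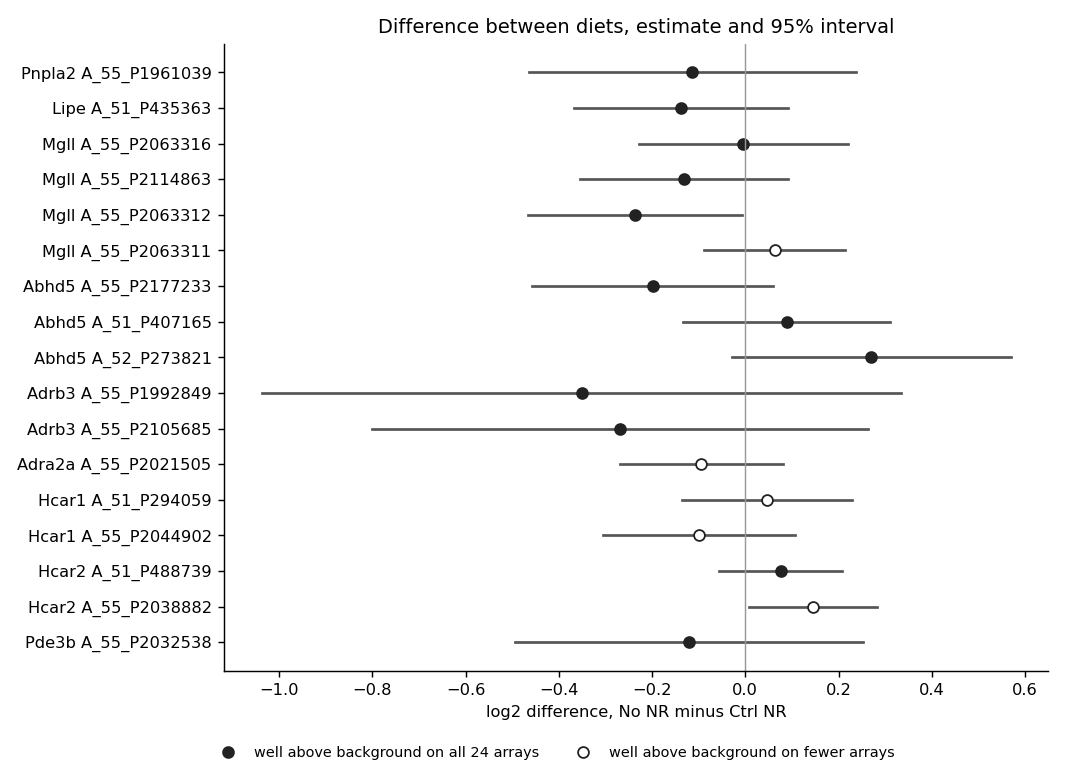
Log2 difference, No NR minus Ctrl NR (horizontal axis), with its 95% interval for each of the 17 probes, ordered by role. Open circles are the 5 probes that were not well above background on all 24 arrays; 2 intervals, those of Mgll A_55_P2063312 and Hcar2 A_55_P2038882, lie off 0, the Hcar2 probe having passed the filter only through No NR, and the 2 Adrb3 intervals are the widest.

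The rest of the pathway was read from 8 lists with 79 kept genes, of which 8 (10.1%) had an unadjusted p under 0.05, against 14.0% of all probes, and 0 passed after adjustment (limma). On the cAMP side 3 of 15 genes had an unadjusted p under 0.05, all of them lower in No NR fat. Prkaca, the catalytic alpha subunit of protein kinase A, averaged -0.05 ± 0.11 in No NR fat and 0.22 ± 0.22 in Ctrl NR fat (SD, n = 12 each), a difference of -0.26 (unadjusted p = 0.00121, adjusted p = 0.114). The adenylate cyclase Adcy4 averaged -0.11 ± 0.15 in No NR fat and 0.13 ± 0.25 in Ctrl NR fat, a difference of -0.25 (unadjusted p = 0.00603). The median of this list was -0.04.

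Among receptors and effectors of the Gi arm 1 of 11 genes had an unadjusted p under 0.05, Adra2c, the alpha-2C adrenergic receptor (difference -0.24, unadjusted p = 0.0473). Ffar4, a receptor for long-chain fatty acids, had a difference of -0.21 (unadjusted p = 0.220). Of the natriuretic peptide genes 0 of 4 had such a p, and the receptors Npr1 and Npr2 had differences of -0.10 and -0.11. Of the list of genes through which insulin restrains lipolysis 0 of 13 did. That list also holds Pdk1 (0.04), a pyruvate dehydrogenase kinase that does not belong to this arm, and the counts include it. The kinase Pdpk1 (-0.13, unadjusted p = 0.0505) and Akt2 (-0.22, unadjusted p = 0.114) came closest, and 10 of the 13 were lower, with a median of -0.06. For the droplet coat and lipase inhibitors it was 0 of 8, with Plin5, a perilipin of oxidative tissue, at -0.22 and Hilpda, an inhibitor of adipose triglyceride lipase, at 0.17.

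Other lipases had 1 of 12 genes at an unadjusted p under 0.05. Lpl, the lipoprotein lipase that takes fatty acids up from the blood, averaged 0.35 ± 0.35 in No NR fat (n = 12) and 0.07 ± 0.31 in Ctrl NR fat (SD, n = 11), a difference of 0.28 (unadjusted p = 0.0416, adjusted p = 0.333, limma). Dagla, a diacylglycerol lipase, was at -0.16. Of genes that handle the released fatty acid and glycerol 1 of 8 had such a p, the fatty acid transporter Slc27a1, at 0.01 ± 0.29 in No NR fat and 0.42 ± 0.46 in Ctrl NR fat (difference -0.41, unadjusted p = 0.00877). The glycerol channel Aqp7 was at -0.13. Of 9 transcription factors that act on lipase genes 2 had such a p, Cebpb (difference -0.35, unadjusted p = 0.00668) and Srebf1 (-0.42, unadjusted p = 0.00894), and 7 of the 9 were lower.

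The members differed from each other in how they moved from mouse to mouse. The 29 adipocyte markers, none of them a member, were averaged per mouse. They spanned -0.56 to 0.62 in No NR fat and -0.66 to 0.67 in Ctrl NR fat, so mice with a high and a low adipocyte signal occurred on both diets. In a limma model with diet and this mean, 12 of 17 member probes, from 7 genes, were higher with it at an adjusted p under 0.05, against 10.3% of all probes in that direction. The exceptions after loess were both Hcar2 probes, Adra2a, the dim Mgll probe and Abhd5 A_52_P273821. With median centring 15 of 17 probes had a positive r with it at an adjusted p under 0.05 (permutation test, no diet term). Abhd5 A_52_P273821 then had a slope of 0.74 and Hcar2 A_51_P488739 of 0.59, so these exceptions depend on the normalization. In bulk tissue, fewer cells of a type and less RNA per cell cannot be told apart.

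**Figure D3:**
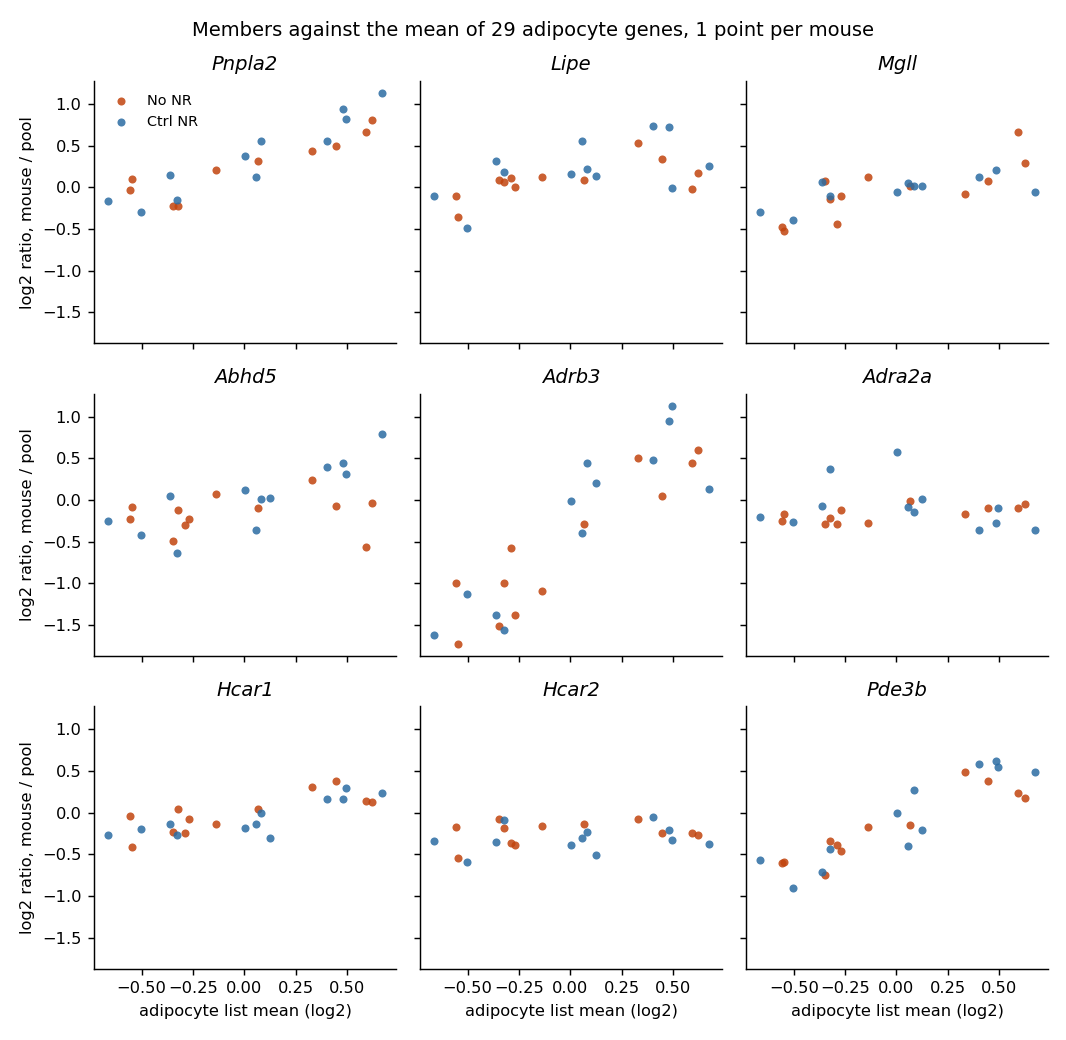
Log2 ratio of each gene's brightest probe (vertical axis, shared by all panels) against the mean of 29 adipocyte genes (horizontal axis, log2), with 1 point per mouse and diets in colour. Adrb3 climbs most steeply, Pnpla2 and Pde3b less, and Adra2a and Hcar2 stay nearly level; mice of both diets lie along the whole range.

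Adrb3 had the steepest slope, 1.88 log2 units per log2 unit of the adipocyte mean (95% interval 1.52 to 2.25, adjusted p = 1.56e-09), and 1.51 by its second probe. Pde3b followed with 1.02 (0.80 to 1.23) and Pnpla2 with 0.86 (0.67 to 1.04). Mgll had 0.47 (0.27 to 0.67), Abhd5 0.43 (0.16 to 0.69), Hcar1 0.42 (0.27 to 0.57) and Lipe 0.37 (0.14 to 0.61), all at adjusted p-values of 0.0140 or lower by limma. Hcar2 had 0.09 (-0.07 to 0.24) and Adra2a -0.02 (-0.23 to 0.19). After loess the slope of Adrb3 was thus steeper than that of Pnpla2, Lipe or Mgll, which was not detected with median centring.

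Of the 36 pairs of members 27 differed in slope at an adjusted p under 0.05 (permutation test with 100000 resamples, two-sided, adjusted over the 36 pairs). This count was 19 with median centring, 32 with processed signals, 19 within No NR and 20 within Ctrl NR. Pairs of other genes were not counted in this way, so the count describes the members and sets them apart from no other genes. Adrb3 was steeper than Pnpla2 by 1.03 (adjusted p = 0.000384, n = 21) and than Pde3b by 0.887 (adjusted p = 0.000334, n = 24). With median centring Adrb3 no longer differed detectably from Pnpla2 (adjusted p = 0.729), Lipe (0.695), Mgll (0.867), Abhd5 (0.562) or Pde3b (0.863). Pnpla2 was steeper than Lipe by 0.470 (adjusted p = 0.0182, n = 21), a call lost without the 2 farthest mice (0.0735), with median centring (0.729), processed signals (0.428), Cy5 alone (0.225) and the value table (0.155), and within each diet (0.196 in No NR, 0.0898 in Ctrl NR). Hcar1 was steeper than Adra2a by 0.419 (adjusted p = 0.0137, n = 24) and than Hcar2 by 0.333 (adjusted p = 0.000517, n = 24). With median centring the first of these was lost (adjusted p = 0.562) and the second reversed, Hcar1 having a slope of 0.33 and Hcar2 of 0.59 (adjusted p = 0.0400). Pde3b and Pnpla2 did not differ detectably (0.164, adjusted p = 0.216, n = 21), nor did Lipe, Mgll, Abhd5 and Hcar1 among each other (adjusted p from 0.658 to 0.861). Pde3b was steeper than Pnpla2, however, with diet and slide means removed (adjusted p = 0.00563), processed signals (0.000912), Cy5 alone (0.0407) and the value table (0.00963). Hcar1 was steeper than Lipe (0.0291), Mgll (0.00352) and Abhd5 (0.00601) with processed signals and less steep than each with median centring (0.000396, 0.000425 and 0.000396), and Lipe was steeper than Mgll with processed signals (0.00733). The slopes depend on the array normalization: with ratios centred on the median in place of loess, and no diet term, Adrb3 had 1.08, Pde3b 1.04, Pnpla2 1.01, Mgll 0.94, Lipe 0.94 and Abhd5 0.87, against 1.91, 1.02, 0.86, 0.47, 0.39 and 0.44 after loess. For the dim Hcar1 the processed signals of the files gave 1.10 in place of 0.41.

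**Figure D4:**
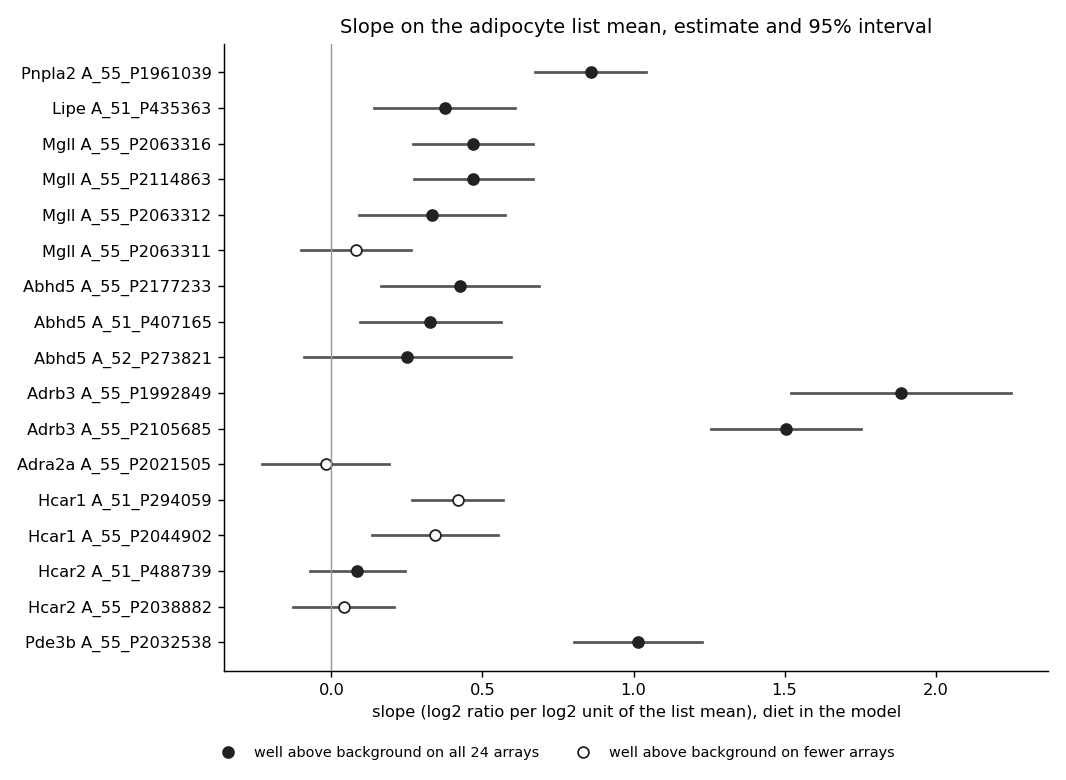
Slope of each of the 17 probes on the adipocyte list mean (horizontal axis, log2 ratio per log2 unit, diet in the model) with its 95% interval, ordered by role. Both Adrb3 probes lie right of 1.25 with their whole intervals, while the intervals of Adra2a, both Hcar2 probes, 1 Mgll probe and 1 Abhd5 probe include 0.

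Correlations over mice used the same adipocyte mean and are no separate support for the slopes. Among the brightest probes Hcar2 and Adra2a again came lowest after loess. Hcar1, with a slope near those of Mgll, Abhd5 and Lipe, had a higher r than each of them. Members and markers were read from the same arrays, so they share each array's depth and normalization. Pearson's r with the adipocyte mean was 0.910 for Pnpla2 (Spearman's rho 0.897, n = 21), 0.90 for Pde3b (rho 0.883), 0.895 and 0.925 for the Adrb3 probes (rho 0.882 and 0.913) and 0.787 for Hcar1 (rho 0.737, n = 24). The permutation p was 1e-05, the smallest that 100000 resamples can give, for Pnpla2, Pde3b and Adrb3, and 2e-05 for Hcar1. It was 0.730 for Mgll (rho 0.679, n = 23), 0.561 for Lipe (rho 0.517) and 0.554 for Abhd5 (rho 0.531), with permutation p-values of 2e-05, 0.00369 and 0.00467. Hcar2 and Adra2a had r of 0.218 and -0.02 (rho 0.133 and 0.0835, permutation p = 0.306 and 0.935). Without the 2 mice farthest from the median of the adipocyte mean, r was 0.896 for Pnpla2, 0.896 for Pde3b, 0.906 for Adrb3, 0.756 for Hcar1, 0.780 for Mgll, 0.550 for Lipe and 0.461 for Abhd5. The relation of Abhd5 then had an adjusted p of 0.0504 and thus rests in part on those 2 mice.

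The same relations were computed within each diet. In No NR fat r was 0.907 for Pnpla2, 0.917 for Adrb3 and 0.911 for Pde3b, and in Ctrl NR fat it was 0.942, 0.890 and 0.908 for the same genes. With diet and slide means removed Pnpla2 kept an r of 0.914. Adra2a, unrelated to the adipocyte mean over all mice after loess, had r = 0.649 in No NR fat (adjusted p = 0.0442, permutation test). In Ctrl NR fat its r was -0.277 (adjusted p = 0.508). Abhd5 A_55_P2177233 had r = 0.132 in No NR fat and 0.823 in Ctrl NR fat. Its slope differed between the diets by -0.72 (No NR minus Ctrl NR, unadjusted p = 0.00317), which did not pass over all probes (adjusted p = 0.445, limma), and 9.83% of all probes had an unadjusted p under 0.05 in that test. For the other 16 member probes the unadjusted p of this difference was 0.0557 or higher.

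Macrophage markers ran the other way after loess. Their mean per mouse, over 28 kept genes, ran from -0.70 to 0.83 in No NR fat and from -1.16 to 0.84 in Ctrl NR fat and was related to the adipocyte mean with r = -0.949 (rho -0.95, permutation p = 1e-05, n = 24). In the model with diet and this mean, 10 of 17 member probes, from 7 genes, were lower with it at an adjusted p under 0.05, against 9.75% of all probes. Pnpla2 had r = -0.911 with the macrophage mean, Pde3b -0.909, Adrb3 -0.872, Hcar1 -0.761, Mgll -0.646, Abhd5 -0.638 and Lipe -0.546. In all 24 of 34 relations with the adipocyte and macrophage means had an adjusted p under 0.05 (permutation test, adjusted over the 34). For this test the share over all probes was not counted. The relation with the macrophage mean depends on the normalization. With median centring in place of loess the 2 list means correlated at 0.369, 15 of 17 member probes had a positive r with the macrophage mean (Pnpla2 0.469), and the r of Pnpla2 with the adipocyte mean was 0.95. With the processed signals, the Cy5 channel alone and the authors' value table the list means correlated at -0.943, -0.915 and -0.935. The part of other cell types in these relations was not tested.

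The members were also compared with each other. Of the 36 pairs 20 were correlated at an adjusted p under 0.05, all of them positively after loess (permutation test, adjusted over the 36). The share over pairs of other genes was not counted, so this number says nothing particular about the members. Adrb3, Pde3b and Pnpla2, the receptor that raises cAMP, the enzyme that removes it and the first lipase, had the 3 highest r after loess: r was 0.889 for Adrb3 with Pde3b, 0.885 for Pnpla2 with Pde3b and 0.860 for Pnpla2 with Adrb3 (rho 0.870, 0.882 and 0.853, permutation p = 1e-05 each). Without the 2 mice farthest from the median of the first gene they were 0.877, 0.872 and 0.916. Hcar1 joined them (0.814 with Pde3b, 0.727 with Adrb3, 0.725 with Pnpla2). After loess the lipases were less close to each other, with r of 0.476 for Pnpla2 with Lipe (permutation p = 0.0302, adjusted p = 0.0518), 0.563 for Pnpla2 with Mgll and 0.486 for Lipe with Mgll. This order depends on the setting: with median centring these 3 were 0.879, 0.871 and 0.936, against 0.691 for Pnpla2 with Adrb3 and 0.823 for Adrb3 with Pde3b. With processed signals Pnpla2 with Lipe was 0.754 and Lipe with Mgll 0.801, and Lipe with Mgll was 0.321 in No NR fat and 0.933 in Ctrl NR fat. Pnpla2 and its coactivator Abhd5 had r = 0.720 over all mice, 0.173 in No NR fat and 0.924 in Ctrl NR fat, and this difference was not tested. Hcar2 passed with Lipe alone (r = 0.553, rho 0.370, permutation p = 0.00502, and 0.332 without the 2 mice farthest from the median). Adra2a passed with none of the other 8, with r from -0.23 to 0.10. With median centring 33 of the 36 pairs passed, and Adra2a then had r of 0.532 with Pnpla2 and 0.578 with Lipe. With processed signals 30 pairs passed, and 4 of them were negative, Adra2a with Pnpla2 (-0.476, adjusted p = 0.0302), Abhd5 (-0.611, 0.00619), Hcar1 (-0.532, 0.00556) and Pde3b (-0.418, 0.0411). Without the 2 farthest mice 11 pairs passed, and within diets 7 passed in No NR fat and 12 in Ctrl NR fat.

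**Figure D5:**
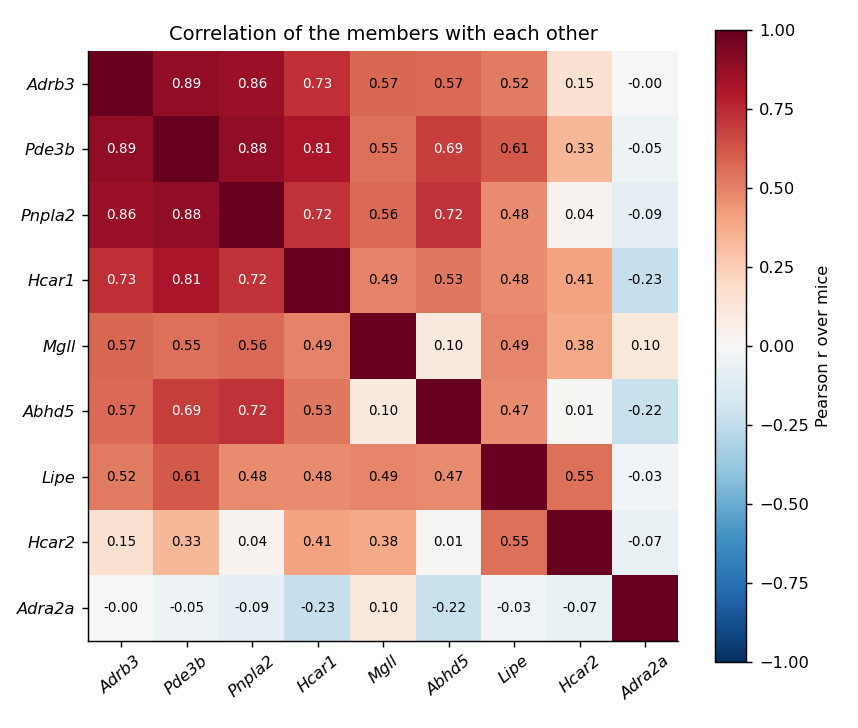
Pearson's r over mice between the brightest probes of the 9 genes, with the value in each cell and colour from -1 to 1. Adrb3, Pde3b, Pnpla2 and Hcar1 form the block of high r at the upper left, and the row of Adra2a lies between -0.23 and 0.10.

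For each member the genes of most similar profile were taken from 12563 other named genes by Pearson's r over mice. This was done after loess only, and other normalizations were not tried. Pnpla2 was closest to Trub2 (r = 0.957), a pseudouridine synthase, Car3 (0.954), a carbonic anhydrase abundant in fat cells and among the adipocyte markers, and Cox6a1 (0.947), a subunit of cytochrome oxidase, and 22 genes had r of at least 0.9. Pde3b was closest to Arxes2 (0.953), an adipocyte-related gene, Cyp2e1 (0.944) and Fam13a (0.944), with 15 genes at 0.9. Adrb3 was closest to Plin4 (0.939), a perilipin that is also among the adipocyte markers, Cyp2e1 (0.936) and the phosphatase Ptp4a1 (0.927), with 10 genes at 0.9. Abhd5 was closest to 3 genes of mitochondria, Timm10 (0.930), Bola3 (0.919) and Ndufa5 (0.909).

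Mgll was closest to Prxl2b (0.895), the droplet protein Cidec (0.857), also an adipocyte marker, and Cox8a (0.855), another subunit of cytochrome oxidase. Hcar1 was closest to Syt12 (0.842), Fam13a (0.839) and Rbpms2 (0.832). After loess Lipe had looser company in Grina (0.816), Htra3 (0.805) and Ddt (0.783), and 2 genes in all had r of at least 0.8 with it. Adra2a was closest to the laminin chain Lamb2 (0.786), Adamts8 (0.773) and Susd2 (0.760). These 3 had r of 0.499, 0.421 and 0.417 in No NR fat, against 0.916, 0.893 and 0.924 in Ctrl NR fat, where mice 84 and 108 stood apart. Hcar2 was closest to Fmr1 (0.749), Gsdme (0.726) and Mmd (0.686), and no gene reached 0.8 with Hcar2 or Adra2a. Fam13a and Cyp2e1 came up for 2 members each.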

How the data were processed

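Epididymal fat RNA of 24 mice (12 per diet) was measured on 24 Agilent 2-colour arrays of 62976 spots on 5 slides, all in the same dye orientation. The submitters' processing notes name Agilent Feature Extraction, version 10.7.3.1. The deposited files hold median spot and background intensity on a linear scale, processed intensity (background subtracted, dyes balanced, per the file headers), and yes or no flags. The authors' deposited value table holds log2 values of 26384 features. All 24 of its columns followed the log2 Cy5 signal of their own array best, each column's median was 8.04, and the method behind it is not given in the sources used here.

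Background was corrected with normexp (offset 50), and limma 3.58.1 (R 4.3.3) normalized the ratios by loess, giving control spots a weight of 0. Spots with an outlier flag were dropped (0.106% of kept values). A probe passed when 6 or more of the 12 arrays of 1 diet or the other had it well above background. Accessions named 27235 probes through RefSeq GRCm38.p6, and 28446 kept no name. The headers name build mm9, so no coordinates come from the arrays. The brightest kept probe stands for a gene in correlations and lists. Brightness sets no order between probes. Diets were compared with lmFit and eBayes without covariates, and Benjamini-Hochberg adjustment over 24769 probes at 0.05. Relations over mice used permutation tests (100000 resamples, numpy 2.4.6). The models with a list mean were added after the data were seen, as were the slope comparisons. The median SE of a difference was 0.0809, so the number of arrays limits precision. Labels number the animals, and arrays of 1 mouse each are the replicates. The self-test on simulated data is not quoted.

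The members, lists and tests were chosen with earlier results of these data known. Named were all members, the 2 genes of lowest unadjusted p of each pathway list and the 3 most similar genes of each member, without clone or predicted names. Adipoq, Lep, Rnase10, Ovch2 and the mice singled out were named after their values were seen. Alternatives covered background, normalization, channel, filter, slide, variance model, covariates and single mice.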

Additional observations from a re-analysis of the deposited data

How the results depend on the processing

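No paired analysis was possible because the diets share no animal. No member probe passed at an adjusted p under 0.05 in any setting run (lowest adjusted p 0.127), leaving out each mouse included. At an unadjusted p under 0.05, 0 member probes passed with no background subtraction, median centring, scaling between arrays, Cy5 alone and slide as fixed block. Of all 24769 probes, 3466, 302, 3264, 2658 and 3249 did so in these settings, in the same order. The member count was 1 with the value table (2814 of 23990 probes) and with probes well above background on all arrays (2487 of 17031). Without single mice the member count was 0 to 3. Over all probes, counts at an adjusted p under 0.05 were 3 with an intensity trend, 391 with array weights, 75 and 202 with the macrophage and adipocyte means as covariates, and 0 to 271 without single mice. At an unadjusted p they were 302 with median centring (91 higher, 211 lower, against 1642 higher and 1837 lower), 5222 with no filter, and 2937 to 4379 without single mice. Signs of 10 of 17 probes held in all settings, and of 16 without each mouse (Mgll A_55_P2063316 from -0.0693 to 0.0397). No probe kept 1 sign on all 5 slides, each of 3 to 6 mice. Signs turned with scaling between arrays for Pnpla2 (0.21), Mgll A_55_P2063316 (0.13) and Hcar2 (-0.0221), with the macrophage mean for Pnpla2 (0.00142), Mgll A_55_P2063316 (0.0532) and Pde3b (0.0740), with the adipocyte mean for that Mgll probe (0.0104), with the mean of a gene's probes for Abhd5 (0.0535) and Hcar1 (-0.0266), and with processed signals for Adra2a (0.0201).

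Correlated pairs numbered 7 within No NR, 12 within Ctrl NR, 11 without the 2 farthest mice, 33 with median centring, 30 with processed signals (4 of them negative, all with Adra2a), 23 with diet and slide means removed, 20 with the value table and 13 with Cy5 alone. Pairs of unequal slope numbered 27, and 19 to 32 under these settings. Median centring turned r with the macrophage mean for Pnpla2 (0.469), Lipe (0.584), Mgll (0.731, 0.611, 0.609), Abhd5 (0.487, 0.586, 0.584), Hcar1 (0.081, 0.082), Hcar2 (0.725) and Pde3b (0.256). It also turned r of Adra2a with Pnpla2 (0.532), Lipe (0.578), Abhd5 (0.459), Hcar2 (0.629), Pde3b (0.493) and the adipocyte mean (0.587). The cause was not tested. The r of Adra2a with the adipocyte mean was also positive after loess within No NR (0.649). Low signal limits Adra2a, Hcar1, Mgll A_55_P2063311 and Hcar2 A_55_P2038882.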

Other observations

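A probe without a gene name, A_55_P2138100, had the largest difference of all kept probes, -1.52 on the log2 scale (No NR minus Ctrl NR). Across mice Abhd5 A_52_P273821 ran against it (r = -0.673, rho -0.597, permutation p = 0.00042, adjusted p = 0.00714 over 17 member probes, n = 24). Without the 2 farthest mice r was -0.614, with diet and slide means removed -0.672, in No NR fat -0.115 and in Ctrl NR fat -0.706. For the other 16 member probes the adjusted p was 0.112 or higher. The other Abhd5 probes had r of 0.308 (A_55_P2177233) and -0.267 (A_51_P407165).

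Endothelial markers were lower in No NR fat for 13 of 16 genes (median -0.17), with 6 at an unadjusted p under 0.05 and 0 after adjustment (limma). Erg, an endothelial transcription factor, averaged -0.33 ± 0.23 in No NR fat and 0.02 ± 0.29 in Ctrl NR fat (SD, n = 12 each). All 10 kept mesothelial markers were lower (median -0.16), with 0 at an unadjusted p under 0.05. Of these, Krt8 passed the filter only through Ctrl NR (7 arrays, against 5 of No NR), where it was higher. Its direction is therefore a description and no support for the count. The share of probes well above background on an array was not related detectably to any member probe (adjusted p of 0.882 or higher over 17 relations).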
